A study of Mus musculus with 10 samples.

Results

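The C-type lectin pattern receptors examined here are myeloid surface proteins of the Clec gene family. They were chosen by gene symbol from a list of 9 genes, and 8 of them had a row in all 10 library tables, which hold 21938 genes each. These were Clec4n, Clec4e, Clec4d, Clec5a, Clec4a2, Clec12a, Clec4a1 and Clec4a3, and all 8 passed the filter of at least 10 reads in at least 3 libraries that left 11564 genes for testing. Clec7a was not analysed here. Expression was measured by RNA sequencing in macrophages sorted from mammary tumours of C57BL/6 mice, 5 weeks after PyMT tumour cells had been injected into 2 glands of each mouse. PyMT cells derive from mammary tumours that arise in mice with the polyoma virus middle T oncogene. The Mertk KO group (4 libraries) came from mice labelled as lacking, in their macrophages, Mertk, a receptor for the uptake of apoptotic cells, and which had received wild-type tumour cells. In contrast, the Ptdss1 knockdown group (3 libraries) came from wild-type hosts bearing tumour cells with a knockdown of Ptdss1, an enzyme that makes the apoptotic "eat-me" lipid phosphatidylserine. The control group (3 libraries) came from wild-type hosts bearing tumour cells that were wild type too. The labels name neither the driver of the macrophage-specific deletion nor the knockdown construct, and do not state whether any mice gave more than 1 library. The p-values therefore rest on the spread among libraries, part of which may be technical.

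C-type lectin receptors recognise sugars and lipids on fungi, mycobacteria and dying cells. The activating receptors have no long signalling tail of their own. Dectin-2 (Clec4n), Mincle (Clec4e) and MCL (Clec4d) signal through the FcRγ chain, encoded by Fcer1g, and MDL-1 (Clec5a) signals through DAP12, encoded by Tyrobp. Both adapters recruit the kinase Syk, which acts through the CARD9 complex on NF-κB and so on inflammatory genes. The inhibitory receptors DCIR (Clec4a2) and MICL (Clec12a) carry an ITIM, a tyrosine motif that recruits phosphatases. The DCIR relatives encoded by Clec4a1 and Clec4a3 lack this motif. Macrophages, monocytes, dendritic cells and neutrophils all express members of this family.

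All 8 genes lie on chromosome 6 (GRCm38, GENCODE M21 annotation). The 6 Clec4 genes share a stretch of 368 kb, from Clec4a1 (122921848 to 122934619, plus strand) over Clec4a3, Clec4a2 (123106428 to 123143999, plus strand) and Clec4n (123229843 to 123247021, plus strand) to Clec4d (123262111 to 123275265, plus strand) and Clec4e (123281789 to 123289870, minus strand). Clec4d and Clec4e face each other tail to tail across 6.52 kb. Clec5a (40574894 to 40585821, minus strand) and Clec12a (129342691 to 129365303, plus strand) lie outside this stretch. Promoters are shown for Clec4e and Clec4d, the neighbouring genes of the Mincle complex, for Clec4a2, the receptor gene with the smallest p in the tests below, and for Clec5a, the DAP12 receptor outside the stretch, each from 250 bases before to 50 after the annotated start, on the gene's strand, from RefSeq on GRCm38.p6. Capitals mark GAGGAA or its reverse complement TTCCTC, the core that the myeloid factor PU.1 is known to bind, and TGANTCA, the core of AP-1 sites.
Clec4e (chr6:123289822-123290121, minus strand): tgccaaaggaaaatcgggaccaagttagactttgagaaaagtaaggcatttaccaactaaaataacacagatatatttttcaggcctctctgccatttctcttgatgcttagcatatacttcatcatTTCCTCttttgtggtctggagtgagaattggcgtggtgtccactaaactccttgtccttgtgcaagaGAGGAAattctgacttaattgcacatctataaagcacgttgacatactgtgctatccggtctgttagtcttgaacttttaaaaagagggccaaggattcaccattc
Clec4d (chr6:123261857-123262156, plus strand): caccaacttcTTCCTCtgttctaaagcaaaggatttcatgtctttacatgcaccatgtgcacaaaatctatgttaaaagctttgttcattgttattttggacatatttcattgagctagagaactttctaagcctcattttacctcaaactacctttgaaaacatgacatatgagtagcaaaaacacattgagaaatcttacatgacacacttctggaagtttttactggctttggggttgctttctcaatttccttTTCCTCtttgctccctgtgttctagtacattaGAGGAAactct
Clec4a2 (chr6:123122440-123122739, plus strand): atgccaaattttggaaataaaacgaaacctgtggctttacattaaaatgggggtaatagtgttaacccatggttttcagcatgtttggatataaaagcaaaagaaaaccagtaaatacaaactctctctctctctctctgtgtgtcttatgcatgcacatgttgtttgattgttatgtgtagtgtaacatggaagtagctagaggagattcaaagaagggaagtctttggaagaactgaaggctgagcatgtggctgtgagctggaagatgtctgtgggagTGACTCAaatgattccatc
Clec5a (chr6:40585756-40586055, minus strand): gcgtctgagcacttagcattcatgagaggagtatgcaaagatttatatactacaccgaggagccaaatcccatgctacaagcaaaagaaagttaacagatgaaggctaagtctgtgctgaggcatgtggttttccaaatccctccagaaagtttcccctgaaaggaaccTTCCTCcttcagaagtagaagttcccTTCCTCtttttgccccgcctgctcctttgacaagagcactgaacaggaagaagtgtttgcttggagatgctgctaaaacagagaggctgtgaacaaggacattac

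Of the 8 genes, 7 had a promoter entry in the RefSeq table, and 5 motifs were searched in them on both strands. GAGGAA stood in the promoters of 6 of these 7 genes, namely Clec4e, Clec4d, Clec5a, Clec12a, Clec4a1 and Clec4a3, and in 28.3% of all 32851 promoter entries. The letters were not found in the window of Clec4a2. The windows of Clec4a2 and Clec12a follow RefSeq starts that lie inside the genes as placed by GENCODE. The stretches before the GENCODE starts of these genes (123106428 and 129342691) were not searched. TGANTCA was found in the windows of Clec4a2 and Clec12a, against 7.81% of all entries. TTGCNNAA, a core of C/EBP sites, was found for Clec4e and Clec12a (10.8% of all entries). For NF-κB only a loose pattern was searched, which fixes the outer bases of its sites and leaves all middle bases free. It matched for Clec4a1 and in 50.8% of all entries, so this match does not show an NF-κB core. A stricter NF-κB pattern was not searched. TATAAA was found for Clec4e, Clec5a and Clec4a2 (13.6% of all entries). These are matches of letters and not sites known to be bound in these cells.

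The libraries held 10292592 to 25815071 reads assigned to genes. Ptdss1 knockdown replicate 1 and control replicate 2 had the lowest complexity. Among genes that most other libraries held with 10 or more reads, these libraries missed 31.5% and 13.1%. Mertk KO replicates 3 and 4 came next, with 8.60% and 5.75%, and the others missed 0.108% to 1.28%. Results for the receptor genes and counts over all genes are also given without Ptdss1 knockdown replicate 1 and control replicate 2. These 2 are called the low-complexity libraries below. Mertk KO replicates 3 and 4 stay in those results. The medians of the pathway lists and the sums of the marker lists are given only with all 10 libraries. Of the macrophage markers, Apoe, an apolipoprotein made by tissue macrophages, averaged 18.33 ± 0.67 in Mertk KO (SD, n = 4), 17.63 ± 0.42 in Ptdss1 knockdown (SD, n = 3) and 18.49 ± 0.18 in control (SD, n = 3) on the scale log2(normalised reads + 1), which is the level scale used below. Mertk was read in every library, at levels of 10.63, 9.72, 9.24 and 8.95 in Mertk KO, 7.47 to 10.20 in Ptdss1 knockdown, and 9.64, 9.26 and 10.97 in control. The groups overlapped, and since the labels do not say which part of the gene was deleted, a level of the whole gene does not check the knockout. The knockdown of Ptdss1 was made in tumour cells, which were not the cells sorted.

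Set per length, Clec4n and Clec4a3 had the highest group means of the receptors in every group and Clec4e the lowest. The length is that of all annotated exons of a gene joined, and the order between genes depends on it. By mean log2 level, without length, Clec4e (9.69) was above Clec4d (8.54) in Ptdss1 knockdown and the lowest in the other groups. In Mertk KO the mean of Clec4n was 330 ± 94.8 RPKM (reads scaled to exon length and library total; SD, n = 4), that of Clec4a3 was 235 ± 83.5 RPKM and that of Clec4e was 4.42 ± 6.56 RPKM. In Ptdss1 knockdown Clec4n averaged 256 ± 164 RPKM (SD, n = 3), Clec4a3 257 ± 109 RPKM and Clec4e 9.93 ± 1.84 RPKM. In control Clec4n averaged 393 ± 144 RPKM (SD, n = 3), Clec4a3 298 ± 197 RPKM and Clec4e 1.98 ± 0.99 RPKM. The other 5 genes lay between these levels. From high to low they ran Clec4a1, Clec5a, Clec4a2, Clec12a, Clec4d in Mertk KO, Clec4a1, Clec4a2, Clec5a, Clec12a, Clec4d in Ptdss1 knockdown, and Clec4a2, Clec4a1, Clec12a, Clec5a, Clec4d in control. Most neighbours in these orders overlapped between libraries. The exceptions were Clec4a3 above Clec4a1 in Mertk KO, and Clec4a3 above Clec4a2 and Clec4a2 above Clec4a1 in control. Clec4a2 held rank 5 in Mertk KO, 4 in Ptdss1 knockdown and 3 in control. Together the 8 genes took 1264, 1236, 1214 and 1517 CPM (recovered reads scaled to the library total) in the Mertk KO libraries, 1077, 1734 and 1757 in Ptdss1 knockdown and 2212, 1691 and 1047 in control, so the groups overlapped in their sum.

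**Figure D1:**
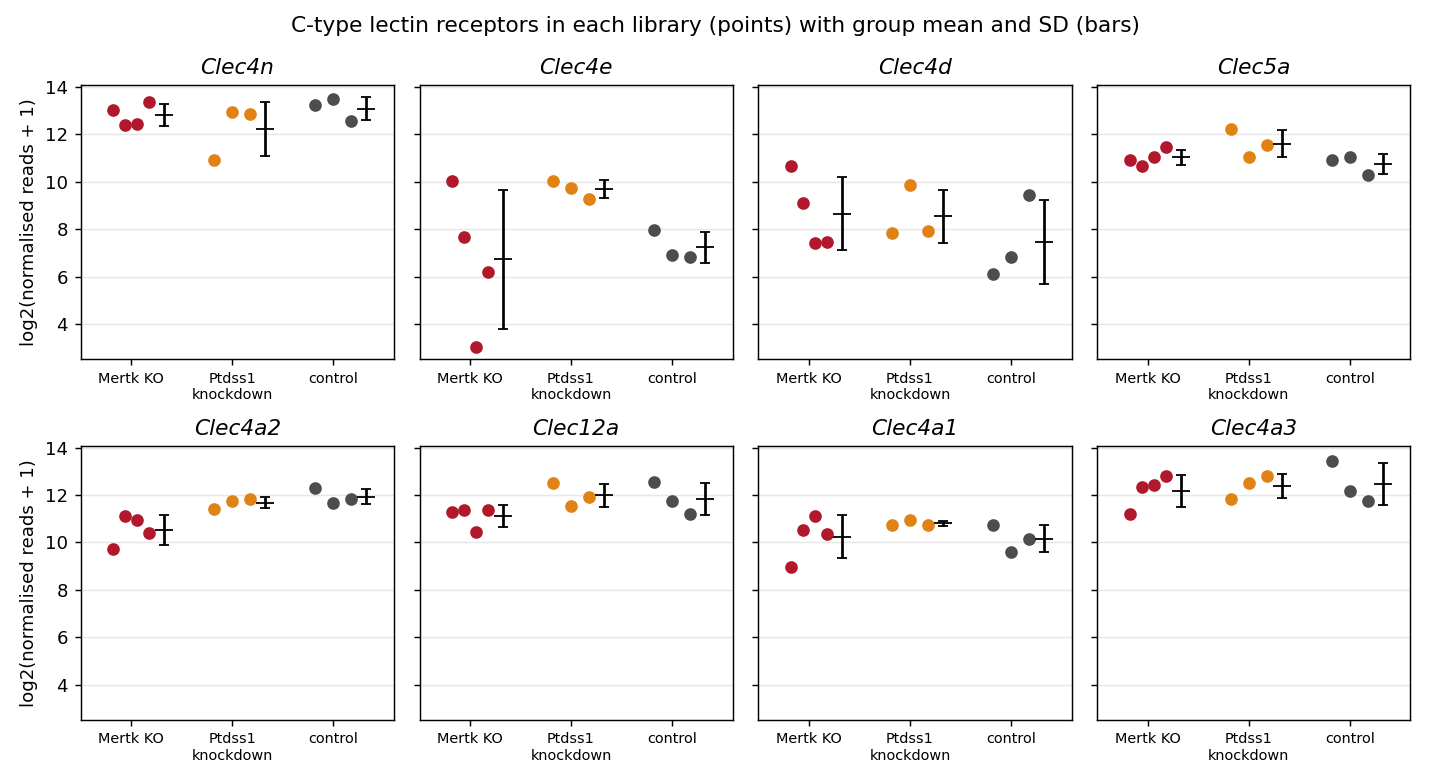
Level of each C-type lectin receptor gene in each library, as log2(normalised reads + 1), for Mertk KO (4 libraries), Ptdss1 knockdown (3) and control (3). Points are libraries and bars are group means with SD. Clec4a2 lay lower in every Mertk KO library than in any library of the other groups, and Clec4e was spread from 3.05 to 10.05 within Mertk KO.

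In macrophages of Mertk KO mice, set against control, 0 of the 8 receptor genes passed the threshold (limma adjusted p below 0.05), where 0.0173% of all tested genes did. The largest difference relative to its error was in Clec4a2, which had all 4 Mertk KO libraries below the lowest control library. It was the only receptor gene whose groups did not overlap, with 1 of 8 genes lower without overlap against 2.62% of all tested genes, and 0 of 8 higher against 3.0%. At an unadjusted limma p below 0.05 there was 1 of 8 genes, again Clec4a2, against 2.06% of all genes. Of the 8 fold changes 3 were positive, against 50.9% of all genes, and their median was -0.28, beside a median of 0.02 over all genes tested. In bulk libraries fewer cells with a transcript and less transcript per cell cannot be told apart.

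In macrophages of the Ptdss1 knockdown group, set against control, 0 of 8 genes passed the threshold (limma), as did 0.0% of all genes. Clec4e, Clec5a and Clec4a1 were each higher in 3 of 3 knockdown libraries than in any control library. That made 3 of 8 genes higher without overlap, against 3.32% of all tested genes (the same 3 without both low-complexity libraries, against 16.3%), and 0 of 8 lower without overlap, against 3.6%. At an unadjusted limma p below 0.05 there were 0 of 8 genes, against 2.9% of all genes. Of the 8 fold changes 5 were positive (48.0% of all genes were), with a median of 0.40 beside -0.05 over all genes.

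When Mertk KO was set directly against Ptdss1 knockdown, 0 of 8 genes passed the threshold (limma), as did 0.0% of all genes. For Clec4a2 and Clec12a all 4 Mertk KO libraries lay below the lowest knockdown library, which is 2 of 8 genes against 2.32% of all tested genes. Higher without overlap were 0 of 8, against 2.91%. Clec4a2 and Clec4e had an unadjusted limma p below 0.05, which is 2 of 8 genes against 3.73% of all genes. Of the 8 fold changes 2 were positive, against 54.0% of all genes, and the median was -0.57, beside 0.11 over all genes. The 3 comparisons use the same 10 libraries in pairs of groups, so their values for a gene are not independent of each other.

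**Figure D2:**
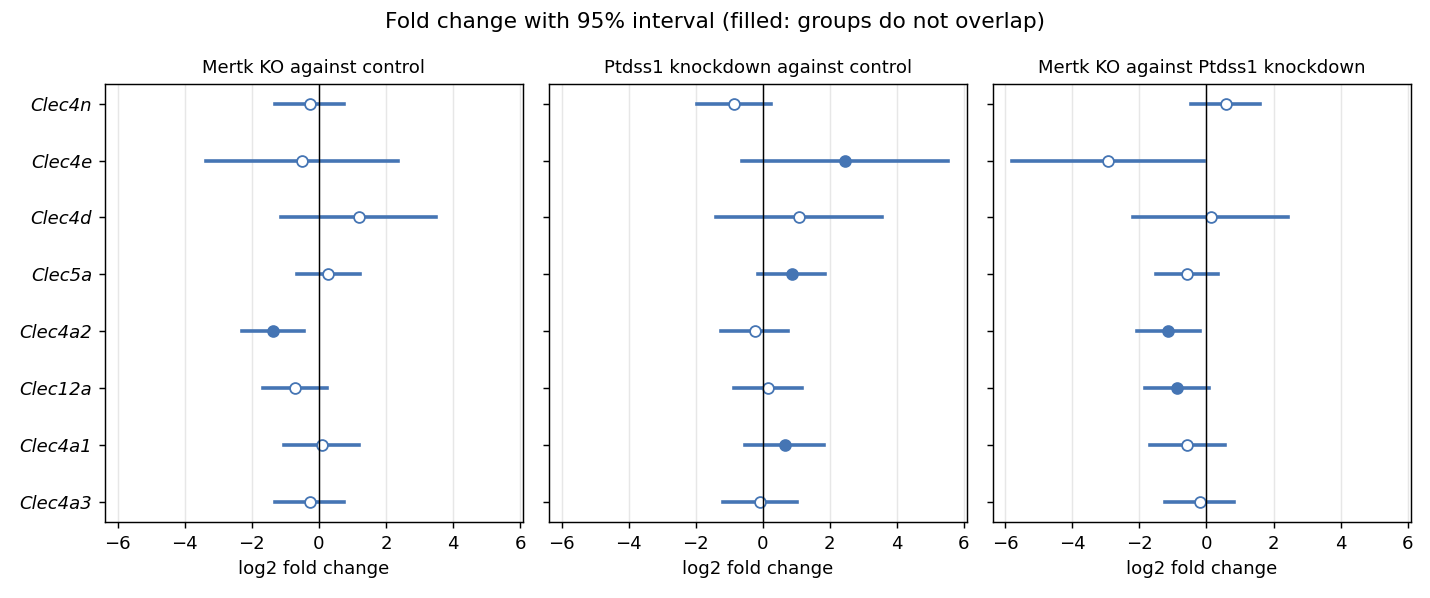
Log2 fold change of each receptor gene with its 95% interval from limma, for the 3 comparisons of Mertk KO, Ptdss1 knockdown and control, with the first-named group on top of the fold. Filled points mark genes whose groups do not overlap. The interval of Clec4a2 lies below 0 in both comparisons of Mertk KO, and those of Clec4e and Clec4d are the widest.

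Clec4a2 encodes DCIR, the inhibitory lectin with an ITIM. Its level was 9.72, 11.13, 10.94 and 10.40 in the Mertk KO libraries, 11.43, 11.77 and 11.85 in Ptdss1 knockdown, and 12.28, 11.68 and 11.81 in control. Every Mertk KO library lay below every other library, and the knockdown and control libraries overlapped. In log2 terms it differed by -1.38 in Mertk KO against control (SE 0.44, 95% interval -2.31 to -0.45, limma adjusted p = 1.0), which was rank 23 of 11564 genes by p. Against Ptdss1 knockdown it was -1.13 (SE 0.44, interval -2.06 to -0.20, limma adjusted p = 0.805). In Ptdss1 knockdown against control it was -0.24 (SE 0.47, interval -1.24 to 0.75, adjusted p = 0.936). Without any 1 library the value against control stayed between -1.57 and -1.10, and with library weights its adjusted p was 0.108, the lowest over the alternatives. Of the 75-base windows of its exons 3.24% also occur in Clec4a4 or Clec4b1, and for the other 7 genes this share was 0%.

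Clec12a encodes MICL, the other inhibitory lectin, known to bind uric acid crystals. It was at 11.27, 11.38, 10.45 and 11.39 in Mertk KO, 12.52, 11.54 and 11.92 in Ptdss1 knockdown, and 12.56, 11.75 and 11.22 in control. Mertk KO lay below all knockdown libraries, while it overlapped with control replicate 3. Its fold change in Mertk KO was -0.87 (log2) against Ptdss1 knockdown (SE 0.45, interval -1.83 to 0.08, limma adjusted p = 0.805) and -0.72 against control (SE 0.45, interval -1.68 to 0.23, adjusted p = 1.0). The value against control was -0.36 without control replicate 1. In Ptdss1 knockdown against control it was 0.15 (SE 0.49), and -0.16 without control replicate 3.

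Clec4e encodes Mincle, a receptor for mycobacterial cord factor that is known to be induced by inflammatory stimuli. Its level was 10.05, 7.67, 3.05 and 6.18 in Mertk KO, from 722, 248, 9 and 89 reads. In Ptdss1 knockdown it was 10.02, 9.75 and 9.28, from 1197, 915 and 1017 reads, and in control 7.97, 6.91 and 6.82, from 306, 114 and 153 reads. The knockdown libraries were all above control and close together, whereas the Mertk KO libraries reached from above the knockdown to below control. The log2 fold change in Ptdss1 knockdown against control was 2.45 (SE 1.46, interval -0.61 to 5.52, limma adjusted p = 0.841), and it stayed between 2.25 and 2.82 without any 1 library. In Mertk KO against control it was -0.49 (SE 1.36, interval -3.36 to 2.37, adjusted p = 1.0), but -1.60 without Mertk KO replicate 1 and 0.73 without Mertk KO replicate 3. Against Ptdss1 knockdown it was -2.95 (SE 1.36, interval -5.81 to -0.08, limma adjusted p = 0.805), and -1.72 without Mertk KO replicate 3. That library missed 8.60% of the genes that most other libraries held with 10 or more reads.

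Clec4d encodes MCL, the partner of Mincle in one receptor complex. It was at 10.66, 9.09, 7.42 and 7.46 in Mertk KO, 7.83, 9.85 and 7.93 in Ptdss1 knockdown, and 6.12, 6.82 and 9.46 in control. A single high library, control replicate 3 with 961 reads, lay within the range of the other groups, while control replicates 1 and 2, with 84 and 107 reads, were below all 7 other libraries. In log2 terms it differed by 1.19 in Mertk KO against control (SE 1.10, interval -1.12 to 3.51, limma adjusted p = 1.0), and 2.19 without control replicate 3 or 0.52 without control replicate 1. In Ptdss1 knockdown against control it was 1.07 (SE 1.18, interval -1.40 to 3.54), with 2.07 and 0.40 without the same libraries. Between Mertk KO and Ptdss1 knockdown it was 0.12 (SE 1.10), and -0.54 without Mertk KO replicate 1. Replicate 1 was the highest Mertk KO library for Clec4d and for Clec4e.

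Clec4n encodes Dectin-2, a receptor for fungal mannans. Its level was 13.03, 12.41, 12.44 and 13.35 in Mertk KO, 10.93, 12.92 and 12.88 in Ptdss1 knockdown, and 13.22, 13.48 and 12.56 in control. The low-complexity Ptdss1 knockdown replicate 1 was the lowest of all 10 libraries, and the other 9 spanned 12.41 to 13.48. The log2 fold change in Ptdss1 knockdown against control was -0.84 (SE 0.52, interval -1.94 to 0.26, limma adjusted p = 0.841), and -0.18 without that library. It was -0.27 in Mertk KO against control (SE 0.49, interval -1.31 to 0.76, limma adjusted p = 1.0). Against Ptdss1 knockdown it was 0.57 (SE 0.49, interval -0.46 to 1.60, limma adjusted p = 0.805), but -0.09 without Ptdss1 knockdown replicate 1.

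Clec5a encodes MDL-1, the receptor that signals through DAP12. It was at 10.90, 10.67, 11.05 and 11.47 in Mertk KO, 12.20, 11.06 and 11.54 in Ptdss1 knockdown, and 10.92, 11.04 and 10.26 in control. The knockdown libraries lay above control by a narrow margin, since Ptdss1 knockdown replicate 2 was 11.06 and control replicate 2 was 11.04. In this comparison it differed by 0.86 (log2; SE 0.47, interval -0.13 to 1.86, limma adjusted p = 0.841), and 0.56 without the low-complexity Ptdss1 knockdown replicate 1. It was 0.28 in Mertk KO against control (SE 0.44, interval -0.65 to 1.21, limma adjusted p = 1.0) and -0.58 against Ptdss1 knockdown (SE 0.44, interval -1.51 to 0.35, limma adjusted p = 0.805). Without Ptdss1 knockdown replicate 1 the difference between Mertk KO and Ptdss1 knockdown was -0.27.

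Clec4a1, the DCIR relative at the other end of the cluster, was at 8.99, 10.51, 11.13 and 10.36 in Mertk KO, 10.76, 10.93 and 10.76 in Ptdss1 knockdown, and 10.74, 9.62 and 10.13 in control. The knockdown libraries again lay just above the highest control library. The log2 fold change was 0.65 in Ptdss1 knockdown against control (SE 0.56, interval -0.53 to 1.84, limma adjusted p = 0.841), and 0.38 without control replicate 2. In Mertk KO it was 0.08 against control (SE 0.53), running from -0.21 to 0.50 when 1 library was left out, and -0.57 against Ptdss1 knockdown (SE 0.53, interval -1.68 to 0.54, limma adjusted p = 0.810), or -0.15 without Mertk KO replicate 1. Clec4a3 was at 11.18, 12.33, 12.41 and 12.78 in Mertk KO, 11.82, 12.52 and 12.80 in Ptdss1 knockdown, and 13.44, 12.18 and 11.74 in control, and all 3 groups overlapped. Its log2 fold changes were -0.28 in Mertk KO against control, -0.07 in Ptdss1 knockdown against control and -0.21 in Mertk KO against Ptdss1 knockdown, each with an SE from 0.49 to 0.53. The first of these was 0.22 without control replicate 1.

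Genes of the Clec4 stretch that are not among the receptors examined differed in level from their neighbours. In the order of the chromosome these were Clec4a4, which encodes another DCIR with an ITIM, Clec4b1, which encodes the activating DCAR, and Clec4b2. Clec4a4 had between 0 and 10 reads in each library, and Clec4b2 was listed at 0 in all 10. Clec4b1 had 6, 167, 703 and 1 reads in Mertk KO, 1, 1493 and 795 in Ptdss1 knockdown, and 791, 0 and 43 in control. It was near 0 in 1 or more libraries of every group. Clec4a2, the next gene on one side, and Clec4a3, beyond Clec4a4 on the other, had at least 574 reads in each of these libraries.

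**Figure D3:**
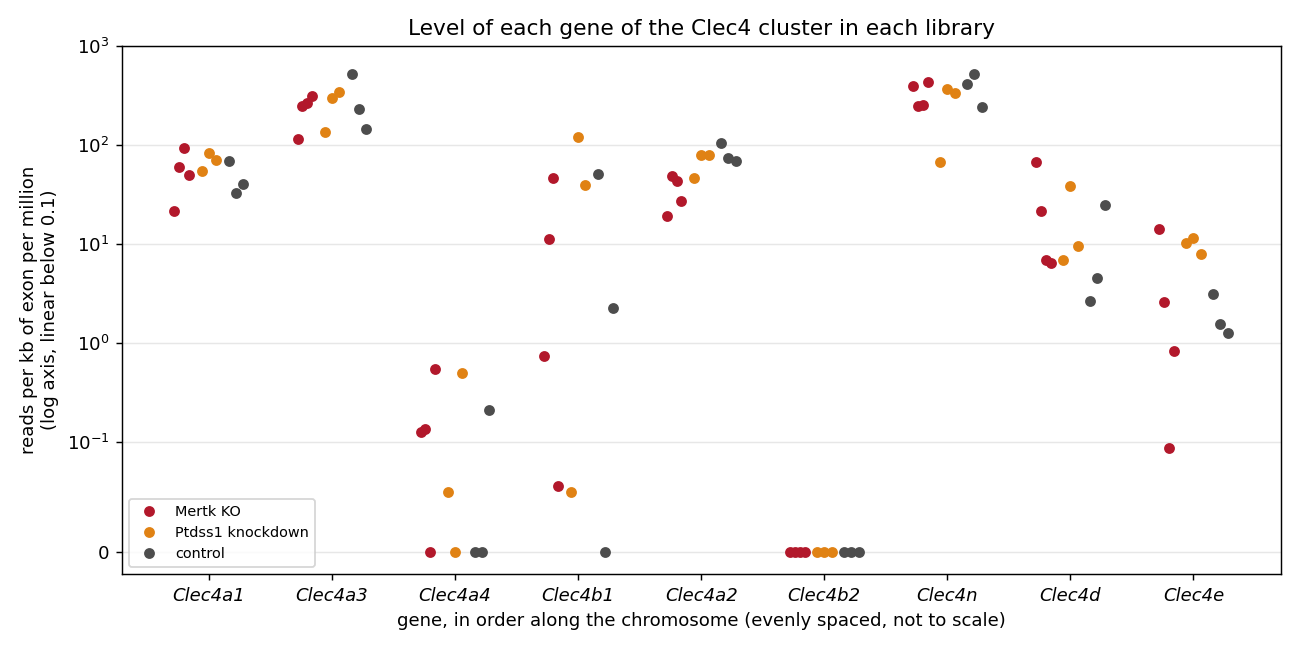
Level per length of the 9 genes of the Clec4 stretch in each library, in RPKM, on a log axis that is linear below 0.1, with genes in chromosome order and evenly spaced. Points are libraries of Mertk KO, Ptdss1 knockdown and control. Clec4a3 and Clec4n are the highest, Clec4b2 is at 0 in all 10 libraries and Clec4b1 ranges from 0 to 120 RPKM.

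The receptor genes did not move as a block across libraries. Over all 10 libraries the highest Spearman rho between any pair of them was 0.56, for Clec4a2 with Clec12a, the ITIM receptors (0.60 without the low-complexity libraries), followed by 0.55 for Clec4a1 with Clec4a3. Clec4e and Clec4d had a rho of 0.49, and 0.62 without the low-complexity libraries. The lowest rho was -0.50, for Clec4d with Clec4a3, and -0.71 without the low-complexity libraries. In those 8 libraries the highest rho was 0.81, for Clec4a3 with Clec12a, against 0.48 over all 10, followed by 0.69 for Clec4a3 with Clec5a. All these values mix differences between groups, depth and complexity of the libraries, and the same holds for the genes most like each receptor among 7949 genes with a mean of at least 10 CPM. For Clec4a2 these were Sh2d1b1, which encodes an adapter of lymphocyte receptors, with a rho of 0.98, H2-Eb1, a chain of MHC class II, with 0.93, and Emc8 with 0.92. For Clec4a1 they were the lectin Cd209f with 0.94, and the lectin Clec10a and Nop16 with 0.93 each. For Clec4e they were Srrt and Ptger4, a prostaglandin E receptor, with 0.90 each and Fchsd1 with 0.90. Clec4d was closest to Cstb, a cathepsin inhibitor, with 0.90, Clec5a to the potassium channel gene Kcnn4 with 0.93, Clec12a to Phf11b with 0.95, Clec4a3 to Ostf1 with 0.95 and Clec4n to Gtf3c1 with 0.94. All these genes were picked as the highest of 7949 values, each over only 10 libraries. How high the best values of such a search reach by chance was not tested.

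The pathway below the receptors was described by lists of other genes. Of 15 adapters and proximal kinases, 0 passed the threshold in any of the 3 comparisons (limma). Their median log2 fold change was 0.07 in Mertk KO against control, 0.54 in Ptdss1 knockdown against control and -0.33 between Mertk KO and Ptdss1 knockdown. For this list and those below, the medians over all tested genes were 0.02, -0.05 and 0.11 in the same order. Fcer1g, the adapter of Dectin-2 and Mincle, averaged 16.27 ± 0.73 in Mertk KO (SD, n = 4), 15.70 ± 1.00 in Ptdss1 knockdown (SD, n = 3) and 16.37 ± 0.80 in control (SD, n = 3). Tyrobp, the adapter of MDL-1, averaged 15.17 ± 0.41, 14.81 ± 0.66 and 15.31 ± 0.72 in the same groups. Syk was lower than both adapters, at 10.39 ± 0.69 in Mertk KO, 10.72 ± 0.52 in Ptdss1 knockdown and 10.93 ± 0.40 in control. In Ptdss1 knockdown against control the smallest p of the list belonged to Plcg2, a phospholipase downstream of Syk, at 1.09 (SE 0.56), and the Src family kinase Fgr, at 1.39 (SE 0.76), whose level was 13.66 in the low-complexity Ptdss1 knockdown replicate 1 and 9.92 and 10.01 in the other knockdown libraries.

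Of 20 genes of the CARD9 relay to NF-κB and NFAT, 0 passed in any comparison (limma). The medians were 0.08 in Mertk KO against control, 0.19 in Ptdss1 knockdown against control and -0.26 between Mertk KO and Ptdss1 knockdown. Card9 itself was low and variable, at 6.96 ± 1.48 in Mertk KO (SD, n = 4), 6.87 ± 3.17 in Ptdss1 knockdown (SD, n = 3) and 7.30 ± 2.17 in control (SD, n = 3). Nfatc1, a transcription factor activated by calcium, had a log2 fold change of 1.62 (SE 0.80) in Ptdss1 knockdown against control, and Map3k7, the kinase TAK1, one of -2.67 (SE 1.47), again with an extreme value in Ptdss1 knockdown replicate 1. Of 11 phosphatases and other effectors of ITIM receptors, 0 passed in any comparison, with medians of 0.18, 0.34 and -0.24 in the same order. Inpp5d, the lipid phosphatase SHIP, averaged 11.38 ± 0.15 in Mertk KO (SD, n = 4) against 11.81 ± 0.22 in control (SD, n = 3), without overlap, a fold change of -0.43 (SE 0.42, limma adjusted p = 1.0). Ptprc, which encodes the leukocyte surface phosphatase CD45, differed by 0.46 (SE 0.39) in Mertk KO against control.

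Among 29 genes known to be induced by these receptors or by NF-κB in macrophages, 23 were tested and 0 passed (limma). The median was 0.41 in Mertk KO against control, with 18 of 23 fold changes positive, against 50.9% of all tested genes. It was 0.40 in Ptdss1 knockdown against control, with 17 of 23 positive, against 48.0% of all genes. Between Mertk KO and Ptdss1 knockdown it was -0.22, with 9 of 23 positive, against 54.0%. Saa3, an acute-phase protein, was at 15.12, 10.37, 13.79 and 4.82 in Mertk KO, 3.89, 10.39 and 4.36 in Ptdss1 knockdown, and 6.72, 3.64 and 4.77 in control. It was high in 3 Mertk KO libraries and 1 knockdown library, and the groups overlapped (fold change against control 5.98, SE 2.15, limma adjusted p = 1.0). Ccl2, a chemokine that draws monocytes, averaged 12.89 ± 0.50 in Ptdss1 knockdown and 11.57 ± 1.18 in control (SD, n = 3 each), a fold change of 1.32 (SE 0.55, limma adjusted p = 0.841). Egr2, a transcription factor of the early response, had 1.44 (SE 0.68) in Mertk KO and 1.52 (SE 0.73) in Ptdss1 knockdown, each against control. Il1b, the cytokine interleukin 1 beta, was the most abundant gene named from this list, at 14.64 ± 0.31 in Mertk KO, 14.77 ± 0.91 in Ptdss1 knockdown and 14.39 ± 0.34 in control.

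**Figure D4:**
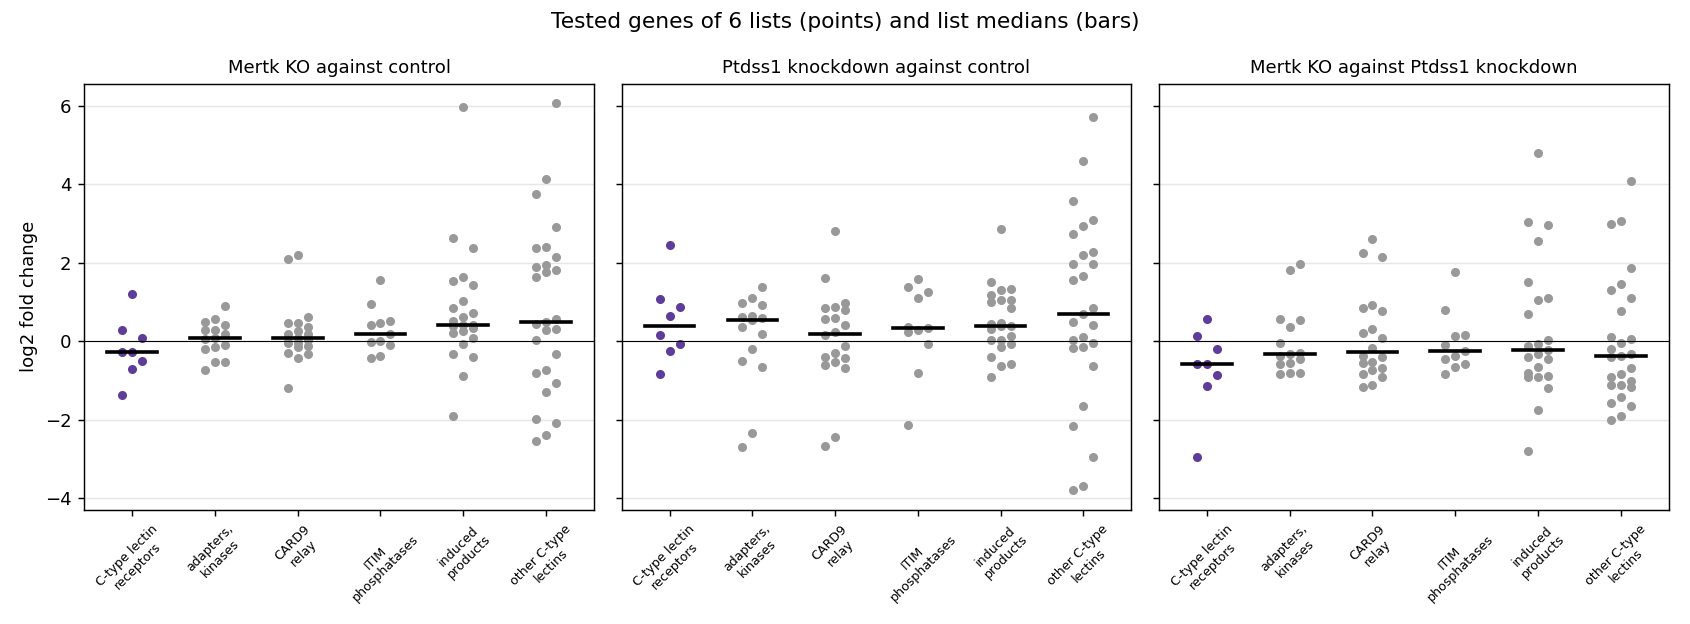
Log2 fold changes of the tested genes of 6 lists in the 3 comparisons of Mertk KO, Ptdss1 knockdown and control, with the median of each list as a bar. Purple points are the 8 C-type lectin receptors, with medians of -0.28, 0.40 and -0.57 from left to right, and grey points are the pathway lists and other C-type lectins. No point passed the threshold.

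Among other C-type lectins and related receptors, values ranged widely. Of 42 listed genes 27 were tested and 0 passed in any comparison (limma). The medians were 0.48 in Mertk KO against control, 0.70 in Ptdss1 knockdown against control and -0.37 between Mertk KO and Ptdss1 knockdown. Over all tested genes they were 0.02, -0.05 and 0.11. Many genes of this list were near the floor. Of the 40 with a row, tested or not, 8 to 23 were at 0 in each library. Olr1, the receptor for oxidised LDL, was at 7.78, 6.87, 8.58 and 6.53 in Mertk KO and at 0, 0 and 4.09 in control, without overlap, while Ptdss1 knockdown held 0.90, 5.79 and 6.68. Its limma adjusted p in Mertk KO against control was 1.0. Mgl2, a galactose-binding lectin of macrophages and dendritic cells, was at 8.65, 9.56, 12.22 and 9.26 in Mertk KO, 12.05, 11.93 and 11.81 in Ptdss1 knockdown, and 11.64, 12.64 and 11.43 in control. Replicates 1, 2 and 4 of Mertk KO lay below all other libraries, replicate 3 lay among them, and the knockdown libraries were close together. The log2 fold change of Mgl2 was -1.98 in Mertk KO against control (SE 0.65, limma adjusted p = 1.0). Mrc1, the mannose receptor, was at 12.89, 13.92, 14.27 and 13.73 in Mertk KO and 12.11, 12.87 and 12.81 in Ptdss1 knockdown, which did not overlap, and at 13.03, 12.91 and 13.72 in control (fold change of Mertk KO against Ptdss1 knockdown 1.11, SE 0.41, limma adjusted p = 0.805). Klrk1, the NKG2D receptor of lymphocytes, was at 6.40, 8.41, 7.82 and 9.08 in Mertk KO, 10.98, 8.70 and 9.85 in Ptdss1 knockdown, and 9.35, 10.75 and 9.92 in control.

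Several of the receptors are also made by other myeloid cells that a macrophage sort could hold, so their marker genes were summed in each library. The dendritic cell list summed to 544 to 1144 CPM in Mertk KO, 257 to 698 in Ptdss1 knockdown and 483 to 857 in control. The groups overlapped. Flt3 was at 0 in 7 of 10 libraries, while Bst2, Batf3 and Tcf4 had reads in all 10. Cd209a reached 498 CPM in Mertk KO replicate 3. Bst2 alone took 656 of the 857 CPM in control replicate 1, and the sum without Bst2 was not taken. The neutrophil list summed to 97.4 to 250 in Mertk KO, 132 to 279 in Ptdss1 knockdown and 126 to 409 in control, and the groups overlapped. Of its 16 genes, Ly6g, Camp, Lcn2, S100a9 and Stfa2l1 were listed at 0 in all 10 libraries, while the other 11 had reads in at least 1, among them S100a8 with up to 69 reads, Mmp8 with up to 147, Csf3r with up to 274 CPM and Il1r2 with up to 283 CPM. The monocyte list summed to 2081 to 3741 in Mertk KO, 1447 to 2945 in Ptdss1 knockdown and 709 to 1118 in control, without overlap to control. Without Fn1, the fibronectin gene and the only marker of any list to pass the threshold (log2 fold change 2.23 in Mertk KO against control), it summed to 255 to 1172 in Mertk KO, 502 to 2290 in Ptdss1 knockdown and 279 to 715 in control, and the groups overlapped. The NK and T cell list was lower in every Mertk KO library than in any other, at 14.6 to 61.8, against 65.5 to 217 in Ptdss1 knockdown and 122 to 237 in control. Without Klrk1 it summed to 0.21 to 56.3 in Mertk KO, 2.82 to 189 in Ptdss1 knockdown and 26.9 to 196 in control, and the groups overlapped. The epithelial list was higher in every Mertk KO library than in any other, at 67.5 to 160, against 0.256 to 61.6 in Ptdss1 knockdown and 21.3 to 33.1 in control. Without Cdh1, the E-cadherin gene, it summed to 4.06 to 102 in Mertk KO, 0.043 to 17.5 in Ptdss1 knockdown and 0.82 to 12.6 in control, and the groups overlapped. The fibroblast list summed to 1.55 to 61.8 in Mertk KO, 0.085 to 23.5 in Ptdss1 knockdown and 1.23 to 5.66 in control, the endothelial list to 46.5 to 89.3, 38.5 to 95.2 and 46.5 to 72.6 in the same groups, and the macrophage list to 45019 to 86564, 32394 to 53220 and 51213 to 63813. The B cell list stayed at or below 43.4 in every library and was highest in Ptdss1 knockdown replicate 2. The mast cell and basophil list reached 141 in the low-complexity Ptdss1 knockdown replicate 1. All of this was Kit, and the other 8 of its 9 genes were at 0 there. The list was at 7.66 and 0.66 in the other knockdown libraries, and at or below 1.99 in Mertk KO and 0.70 in control. The part of these cells in the levels of Clec4a2 and the other receptors was not tested.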

How the data were processed

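RNA from sorted tumour macrophages was amplified by 16 PCR cycles with a low-input kit and sequenced as single reads of 75 cycles in 1 run, per the labels' protocols. The kits do not mark strand or molecules, so intervals cover the spread between libraries only. The submitters' processing notes name STAR, RSEM and mm10, without versions. The authors deposited 1 table per library, whose unit no header or label states. The values carry a decimal comma and were read as log2(normalised reads + 1): undoing the log gave whole reads, within 0.01 of a read, for 100% of values. These reads give the depths, CPM and RPKM. Every gene ID matched GENCODE M21 (GRCm38), which gives coordinates and exon lengths.

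The test was limma-trend (limma 3.58.1, R 4.3.3) with robust moderation on the log2 values of all 10 libraries, each group having its own mean, with no covariate because no batch or pairing is labelled. Tests were two-sided, with Benjamini-Hochberg adjustment over 11564 genes and a threshold of 0.05. Fold changes on this scale understate those of low genes. The procedure was tested on simulated counts, which held no library of low complexity, so that check does not cover such libraries. Alternatives were other scalings, filters, pseudocounts and variance models, and leaving out libraries. All the receptors are named. Of each pathway or marker list, called genes and up to 3 genes of smallest p per comparison were eligible, with Fcer1g, Tyrobp, Syk and Card9 always named. Likeness was ranked by Spearman rho. The receptors and lists were chosen with earlier results of these data known.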

Additional observations from a re-analysis of the deposited data

Results flagged for a closer look

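In Mertk KO, 1 library stood far from the rest of its group for Clec12a. Mertk KO replicate 3 was at 10.45, against 11.27 to 11.39 in the other 3 Mertk KO libraries, and the gap took 0.878 of the range of the group, above Dixon's 95% critical value for 4 samples. The 8 receptor genes were tested for this in the Mertk KO group, the only group of 4, while the groups of 3 were not tested, and chance flags about 1 in 20 such groups. Without this library the log2 fold change of Clec12a was -0.50 against control and -0.65 against Ptdss1 knockdown. Mertk KO replicate 3 missed 8.60% of the genes that most other libraries held with 10 or more reads.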

How the results depend on the processing

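The count of receptor genes past the threshold was 0 in each of the 3 comparisons and stayed 0 in all 20 alternatives run for each. Of 24 pairs of gene and comparison, 15 kept the sign of their fold change in all 20 alternatives and 9 did not. These 9 were Clec4a3 in all 3 comparisons, Clec4a1 and Clec4e in Mertk KO against control, Clec12a and Clec4n in Ptdss1 knockdown against control, and Clec4n and Clec4d in Mertk KO against Ptdss1 knockdown. Without both low-complexity libraries, Clec4a2 in Mertk KO had a fold change of -1.50 against control and -1.26 against Ptdss1 knockdown, and in Ptdss1 knockdown against control Clec4e had 2.13, Clec5a 0.71, Clec4a1 0.41 and Clec4n 0.01. The genes without overlap between groups were the same there, with Clec4a2 in Mertk KO against control (1 lower, against 6.73% of all genes), Clec4e, Clec4a1 and Clec5a in Ptdss1 knockdown against control (3 higher, against 16.3%) and Clec4a2 and Clec12a in Mertk KO against Ptdss1 knockdown (2 lower, against 6.77%). The lowest adjusted p of any receptor gene was 0.0846, for Clec4a2 in Mertk KO against Ptdss1 knockdown with library weights.

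Over all genes, 2 passed in Mertk KO against control. The count was 0 when scaled by total reads, without a filter or with a filter of 50 reads, 1 without robust moderation and 25 with library weights, and it ran from 0 to 4 when 1 library was left out. Library weights gave 2 genes in Ptdss1 knockdown against control and 35 in Mertk KO against Ptdss1 knockdown, where leaving out both low-complexity libraries gave 1. The cause was not tested. The median of all genes in Mertk KO against Ptdss1 knockdown was 0.11 as deposited, 0.07 with TMM factors and 0.19 when scaled by total reads. The 2 planned count models were not run, and limma-voom was the model run on the recovered reads. The sums of monocyte markers without Fn1, of epithelial markers without Cdh1 and of NK and T cell markers without Klrk1, and the overlap without both low-complexity libraries were chosen after seeing the data. No paired analysis was possible because the labels give the libraries no replicate numbers shared between groups. With 3 or 4 libraries per group, the intervals of Clec4e and Clec4d span over 4 log2 units, so differences of several fold in these genes could not be told from none.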
